A study of Mus musculus with 8 samples.

Results

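The 49 genes described here were the Wnt ligands, their receptors and the secreted proteins that modulate them, chosen by gene symbol from the 29621 genes with a transcript in the files. They comprised 19 Wnt ligands, 10 Frizzled receptors, the co-receptors Lrp5 and Lrp6, 4 R-spondins, the 3 R-spondin receptors Lgr4, Lgr5 and Lgr6, 10 secreted inhibitors and Axin2. Total RNA of 8 pancreas samples from C57BL/6 mice at postnatal day 42 was sequenced, 4 from KPC-OG and 4 from KPC mice. KPC-OG mice carried a p48-Cre driver, a Cre-activated oncogenic allele, floxed Trp53 and, at R26, an OG allele that Cre also switches on, which makes the model antigenic per the series title. KPC mice carried the same Cre driver and the same other alleles without OG, so both groups shared the tumour-forming alleles and no group lacked them. The p48 (Ptf1a) promoter acts in pancreatic progenitors, so recombination reaches acinar, duct and islet lineages and is not limited to a single cell type. Whether the libraries of a group stem from separate mice is not stated, so the spread behind each p-value may be partly technical.

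Wnt proteins are lipid-modified ligands that bind Frizzled receptors on neighbouring cells. With Lrp5 or Lrp6 as co-receptor they stabilise beta-catenin, which drives target genes such as Axin2, and without them some ligands signal through planar polarity and calcium routes. R-spondins bind Lgr receptors and prolong the life of Frizzled receptors at the membrane, while Sfrp, Dkk, Wif1 and Notum proteins restrain the ligands or co-receptors outside the cell. In the pancreas these signals are known for roles in organ growth, acinar regeneration and the stroma of tumours.

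Between 13671606 and 18292115 reads per library were assigned to transcripts in KPC-OG, against 7373286 to 11292570 in KPC. Lars2 held 3.73% to 7.11% of gene counts in KPC-OG and 20.8% to 30.0% in KPC, and TMM scaling, which equalises the bulk of genes, multiplied library sizes by 1.141 to 2.276 in KPC-OG and by 0.4829 to 0.6534 in KPC. A single read was thus worth 0.0259 to 0.0655 TMM-scaled CPM (counts relative to the scaled library size) in KPC-OG and 0.169 to 0.265 CPM in KPC, so low genes were measured less precisely in KPC. Scaling by library size alone moved the median gene up by 1.74 on the log2 scale of KPC-OG over KPC relative to TMM, and every direction given here is on the TMM scale. Acinar markers, the defining genes of the labelled tissue, were abundant in every library, with a summed level of 47771 to 164188 CPM in KPC-OG and 311196 to 573570 CPM in KPC. Of 14 of them, 12 were lower in KPC-OG and none higher, where 16.6% of all genes tested were lower and 17.4% higher. Duct markers were higher for 8 of 11 genes and lower for 1, Muc1 (summed level 1057 to 2114 CPM in KPC-OG, 605 to 826 CPM in KPC), and fibroblast and stellate cell markers were higher for 11 of 14 and lower for 1, Fap (1845 to 5034 CPM in KPC-OG, 1076 to 1472 CPM in KPC). Macrophage markers were higher for 10 of 11 genes (803 to 1130 CPM in KPC-OG, 256 to 475 CPM in KPC). In bulk samples, fewer cells of a type and less RNA per cell cannot be told apart, and the part of cell composition in the results on Wnt genes was not tested.

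Promoter sequence, from 250 bases before to 50 bases after the annotated start, was available for 31 of the 49 genes in 34 entries. The letters CTTTGAT, a core form of the site bound by TCF and LEF factors, were searched on both strands, where the reverse strand reads ATCAAAG. They occurred in 2 of the 34 entries (5.88%) and in 1225 of 32851 promoters of the whole table (3.73%), so the share among these genes was read as a description only. The entries were 1 of 2 for Wnt11 and 1 of 3 for Wnt5b, both ligand genes that were higher in KPC-OG, and they are shown with the motif in capitals, beside Axin2, the classical feedback target, whose window holds no copy. Sequences are from RefSeq on GRCm38.p6, read 5′ to 3′ on the gene's strand: chr7:98834862-98835161 (plus strand) for Wnt11, chr6:119449337-119449636 (minus strand) for Wnt5b and chr11:108920099-108920398 (plus strand) for Axin2. The motif began at position -51 in Wnt11 and -71 in Wnt5b relative to the annotated start.
Wnt11: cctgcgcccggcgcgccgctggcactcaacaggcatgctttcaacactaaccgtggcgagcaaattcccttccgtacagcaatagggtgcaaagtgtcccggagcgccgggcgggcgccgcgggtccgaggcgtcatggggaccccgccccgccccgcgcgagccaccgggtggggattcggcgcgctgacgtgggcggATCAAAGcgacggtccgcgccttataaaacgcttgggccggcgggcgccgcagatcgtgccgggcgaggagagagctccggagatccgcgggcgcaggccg
Wnt5b: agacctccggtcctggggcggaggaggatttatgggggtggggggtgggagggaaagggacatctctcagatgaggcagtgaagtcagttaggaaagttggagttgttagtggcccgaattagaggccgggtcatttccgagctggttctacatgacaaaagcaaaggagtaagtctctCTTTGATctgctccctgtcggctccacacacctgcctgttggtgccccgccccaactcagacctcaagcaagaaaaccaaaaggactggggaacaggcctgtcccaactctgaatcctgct
Axin2: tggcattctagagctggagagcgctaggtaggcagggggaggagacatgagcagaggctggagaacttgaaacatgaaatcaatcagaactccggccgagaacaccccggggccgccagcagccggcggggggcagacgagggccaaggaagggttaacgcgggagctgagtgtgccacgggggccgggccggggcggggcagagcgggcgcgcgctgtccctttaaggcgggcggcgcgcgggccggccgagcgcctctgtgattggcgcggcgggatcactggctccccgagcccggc

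The comparison asked how the Wnt genes of the KPC-OG pancreas differed from those of the KPC pancreas. Of the 49 genes, 30 passed the filter on low counts (0.8245 CPM of the unscaled library in at least 4 libraries). With edgeR's quasi-likelihood test at an adjusted p under 0.05, 16 of these rose in KPC-OG, 3 fell and 11 did not pass. Among all 14267 genes tested, 17.4% were higher and 16.6% lower. All KPC-OG libraries lay above all KPC libraries for 12 of the 30 (17.6% of all genes tested) and below them for 2 (17.0%). The median log2 fold change was 1.16 over the 30 genes and 0.09 over all genes tested. Of the 30, 12 reached the filter in all 4 KPC-OG libraries but in fewer than 4 KPC libraries. Testing genes by their level in KPC-OG can raise this median and the count of genes above all KPC libraries. Of the 16 that rose, 7 reached the filter in fewer than 4 KPC libraries and so could be tested only through their level in KPC-OG: Wnt5b, Wnt7a, Wnt7b, Wnt11, Rspo1, Sfrp2 and Wif1. The other 9, among them Fzd1, Wnt5a and Sfrp1, reached it in all 8 libraries. Exons of Wnt5a, Wnt7b, Wnt11, Fzd5, Fzd6, Rspo3, Sfrp2, Notum and Axin2 overlap a gene on the opposite strand, and since the strand of the libraries is not stated, reads of such pairs cannot be told apart.

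**Figure D1:**
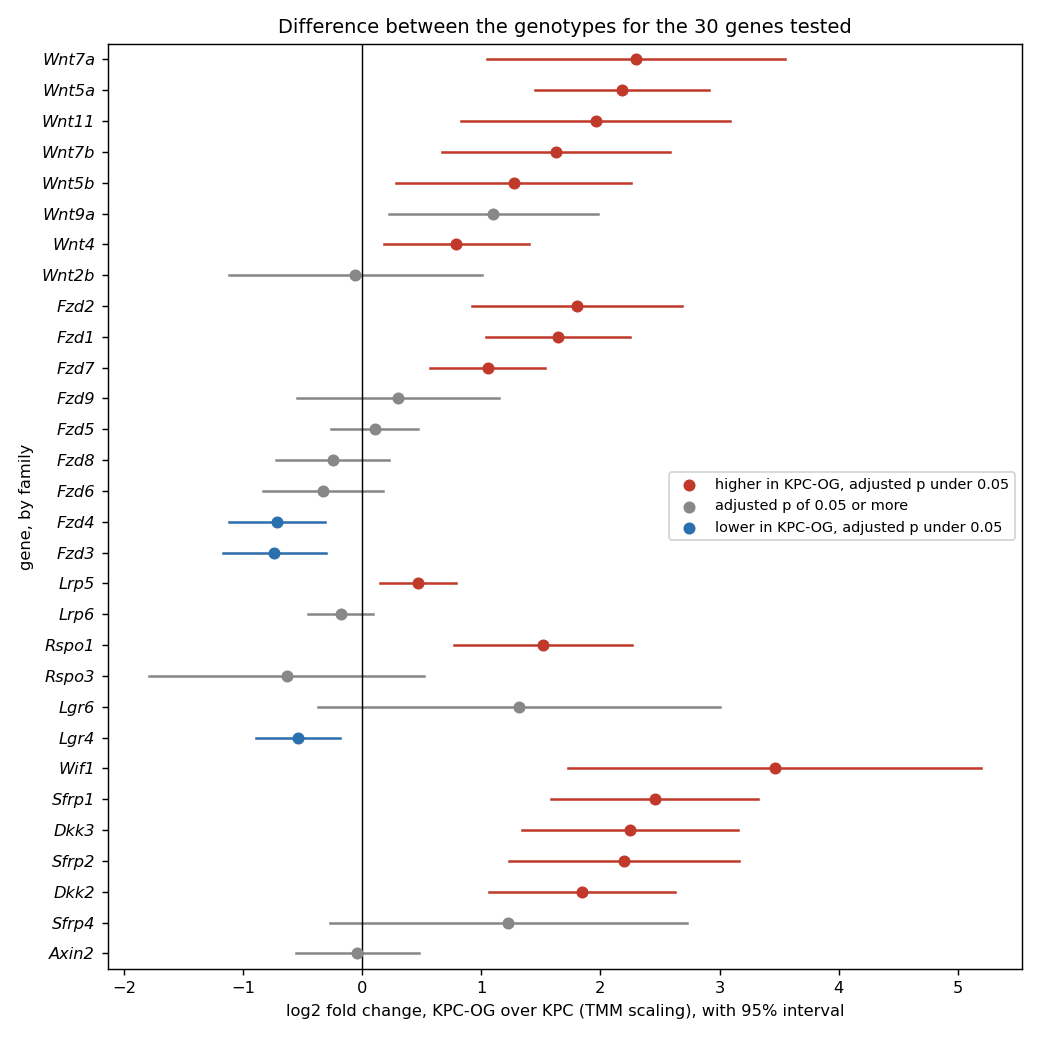
Each point is the log2 fold change of KPC-OG over KPC for 1 of the 30 genes tested, with its 95% interval, ordered by family; red marks the 16 higher genes, blue the 3 lower ones and grey the 11 that did not pass. Wif1 and Sfrp1 lie furthest to the right, and Fzd3, Fzd4 and Lgr4 lie left of 0.

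Among the ligands, 6 of the 8 tested genes rose in KPC-OG (17.4% of all genes tested) and none fell (16.6%). Of these 6, 4 reached the filter in fewer than 4 KPC libraries, and 11 of the 19 ligands were not tested. Wnt5a (ENSMUSG00000021994, chromosome 14, 28504750 to 28527448, plus strand), the prototype of ligands that act without beta-catenin, had 11.9, 12.9, 5.17 and 14.7 CPM in KPC-OG libraries 1 to 4, against 2.29, 2.25, 2.65 and 2.70 CPM in KPC libraries 1 to 4. Every KPC-OG library exceeded every KPC library, and KPC-OG 3 was the lowest of its group. The log2 fold change was 2.18 ± 0.33 (standard error, edgeR adjusted p = 0.00133). Wnt7a, a ligand of epithelia, had 2.86, 2.82, 1.51 and 3.57 CPM in KPC-OG and 0, 0.751, 0.796 and 0.675 CPM in KPC. Its groups did not overlap, although each KPC value rested on 4 reads or fewer. Its log2 fold change was 2.30 ± 0.56 (edgeR adjusted p = 0.0111).

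Wnt7b, a close relative of Wnt7a, had 5.81, 5.18, 2.03 and 5.0 CPM in KPC-OG and 0.764, 1.13, 2.65 and 1.52 CPM in KPC. KPC 3 lay above KPC-OG 3, so the groups overlapped, and the log2 fold change was 1.63 ± 0.43 (edgeR adjusted p = 0.0155). Wnt11, which guides cell movements through the planar polarity route, had 1.37, 1.84, 1.57 and 2.08 CPM in KPC-OG against 0.573, 0.563, 0 and 0.507 CPM in KPC. All 4 KPC-OG libraries lay above the KPC libraries, with a log2 fold change of 1.96 ± 0.51 (edgeR adjusted p = 0.0144). Per transcript length, the largest part of Wnt11 TPM fell on a short protein-coding transcript of 634 bases (56.6% in KPC-OG, 45.4% in KPC). A transcript of 1844 bases annotated as a target of nonsense-mediated decay held 32.7% in KPC-OG and 36.7% in KPC. These are shares of TPM and not of reads, and the KPC shares rest on 9 reads in all. With protein-coding transcripts alone, Wnt11 was too low to test.

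Wnt4, a ligand of duct and kidney development, and Wnt5b, a paralogue of Wnt5a, passed narrowly. Wnt4 had 6.97, 6.19, 4.65 and 6.73 CPM in KPC-OG and 2.48, 3.38, 5.84 and 2.87 CPM in KPC, where KPC 3 exceeded KPC-OG 3. Wnt5b had 1.83, 1.63, 0.851 and 1.82 CPM in KPC-OG and 0.382, 0.939, 0.531 and 0.675 CPM in KPC, where KPC 2 exceeded KPC-OG 3. The log2 fold changes were 0.79 ± 0.27 for Wnt4 (edgeR adjusted p = 0.0471) and 1.27 ± 0.44 for Wnt5b (edgeR adjusted p = 0.0479), and that of Wnt5b turned to -0.23 with re-centred TPM + 1. The Wnt4 call was lost without KPC-OG 1, KPC-OG 2, KPC-OG 4, KPC 1, KPC 2 or KPC 4 (adjusted p up to 0.124), and the Wnt5b call without KPC-OG 1, KPC-OG 2, KPC-OG 4, KPC 1, KPC 3 or KPC 4 (up to 0.122).

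Wnt9a, which acts in joint and bone formation, had 2.31, 1.76, 2.49 and 3.10 CPM in KPC-OG and 0.955, 0.939, 2.12 and 0.675 CPM in KPC, and did not pass (log2 fold change 1.10 ± 0.40, edgeR adjusted p = 0.0534). It passed with DESeq2 (adjusted p = 0.0414) and without KPC 3 (log2 fold change 1.49, edgeR adjusted p = 0.0191). Wnt2b, a ligand of mesenchyme, ranged from 1.89 to 4.88 CPM in KPC-OG and from 0.955 to 5.57 CPM in KPC, with a log2 fold change of -0.06 (95% interval -1.12 to 1.0, edgeR adjusted p = 0.941). The other 11 ligands stayed below the filter. Wnt1 and Wnt3a had no read in any library, and Wnt8a, Wnt8b, Wnt9b and Wnt16 had rounded counts of 0 in all KPC libraries and at most 8 reads in any KPC-OG library. Wnt3, Wnt10a and Wnt10b held 1 to 15 reads per library in KPC-OG and 0 to 4 in KPC. Wnt6, an epithelial ligand whose gene lies 6193 bases from Wnt10a on chromosome 1, had 0.396 to 0.863 CPM in KPC-OG and 0.751 to 1.33 CPM in KPC. Wnt2, a ligand of fibroblasts and endothelium, had 0, 4, 21 and 35 reads in KPC-OG and 0, 0, 0 and 2 in KPC, so its reads came mainly from KPC-OG 3 and KPC-OG 4.

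**Figure D2:**
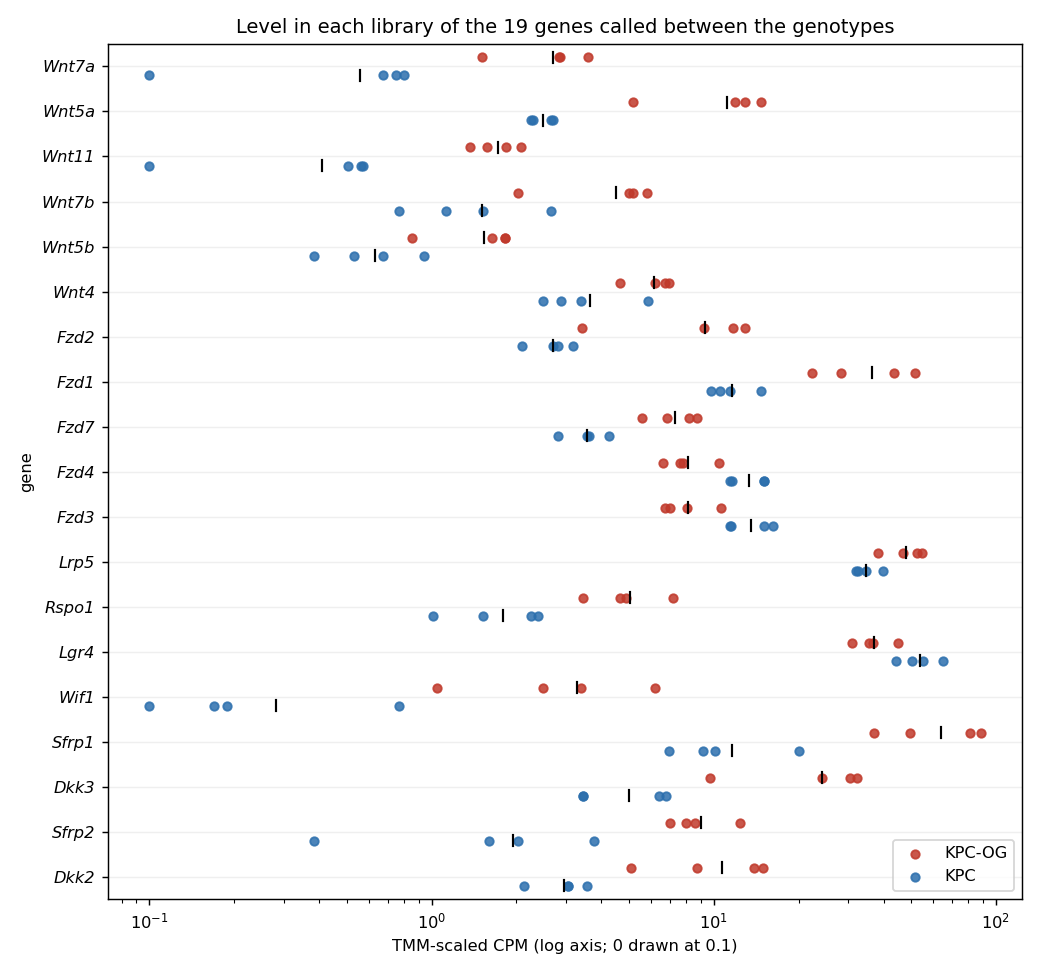
TMM-scaled CPM on a log axis in each library for the 19 genes that passed the test, with KPC-OG (red) above KPC (blue) for each gene, black ticks at the group means and values of 0 drawn at 0.1. The red and blue points are separate for 14 genes and overlap for Wnt4, Wnt5b, Wnt7b, Lrp5 and Lgr4.

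Among the Frizzled receptors, 3 of the 9 tested genes rose (17.4% of all genes tested), 2 fell (16.6%) and 4 did not pass. Fzd1 (ENSMUSG00000044674, chromosome 5, 4753839 to 4758035, minus strand) had 43.7, 28.3, 22.3 and 51.6 CPM in KPC-OG, against 11.5, 10.5, 9.82 and 14.7 CPM in KPC. The lowest KPC-OG library lay above the highest KPC library, and the log2 fold change was 1.64 ± 0.27 (edgeR adjusted p = 0.00199). Fzd2, a receptor for Wnt5a, had 11.7, 9.25, 3.40 and 12.9 CPM in KPC-OG and 2.10, 2.82, 3.18 and 2.70 CPM in KPC, with KPC-OG 3 just above the KPC range (log2 fold change 1.80 ± 0.40, edgeR adjusted p = 0.00713). Fzd7, known from stem cells of the gut, had 8.19, 6.82, 5.57 and 8.72 CPM in KPC-OG and 3.63, 2.82, 4.25 and 3.55 CPM in KPC. Its groups did not overlap either (log2 fold change 1.05 ± 0.22, edgeR adjusted p = 0.0049). By sequence Fzd1, Fzd2 and Fzd7 form a subfamily of the receptors.

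Fzd3, which acts in axon guidance and planar polarity, had 10.6, 8.03, 7.01 and 6.70 CPM in KPC-OG and 16.2, 11.5, 15.1 and 11.5 CPM in KPC. Fzd4, a receptor of blood vessel growth, had 6.64, 7.77, 7.60 and 10.4 CPM in KPC-OG and 15.1, 11.6, 11.4 and 15.0 CPM in KPC. For both, every KPC-OG library lay below every KPC library on the TMM scale. Fzd3 fell by 0.74 ± 0.19 (edgeR adjusted p = 0.0154) and Fzd4 fell by 0.72 ± 0.18 (edgeR adjusted p = 0.0127) on the log2 scale, while with library sizes alone both had positive values of 1.02 and 1.07. The calls were lost without KPC-OG 2 and KPC-OG 3 together (adjusted p = 0.0921 for Fzd3 and 0.0765 for Fzd4). Fzd5, Fzd6, Fzd8 and Fzd9 did not pass, with log2 fold changes from -0.33 for Fzd6 (95% interval -0.83 to 0.18) to 0.30 for Fzd9 (95% interval -0.55 to 1.15). Fzd10 had 45 reads in KPC-OG and 3 in KPC and stayed below the filter.

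The share of each receptor in the summed Frizzled TPM is a measure per transcript length that does not depend on library scaling. Fzd1 held 39.5%, 32.3%, 31.0% and 41.6% in KPC-OG libraries 1 to 4 and ranked first in each, against 13.9%, 15.4%, 13.5% and 17.0% in KPC. Fzd3 held 5.98% to 12.1% in KPC-OG and 16.7% to 26.2% in KPC, and Fzd4 held 6.79% to 11.9% in KPC-OG and 17.8% to 20.7% in KPC. None of these ranges overlapped. Fzd2 (5.41% to 12.0% in KPC-OG, 2.90% to 4.78% in KPC) and Fzd7 (6.44% to 7.13% in KPC-OG, 3.83% to 5.38% in KPC) also had larger shares in every KPC-OG library. Fzd8, which did not pass the test of its own level, held 5.72% to 7.39% in KPC-OG and 8.10% to 11.4% in KPC. Shares of a family sum to 100%, so a larger share of Fzd1 lowers those of the others.

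**Figure D3:**
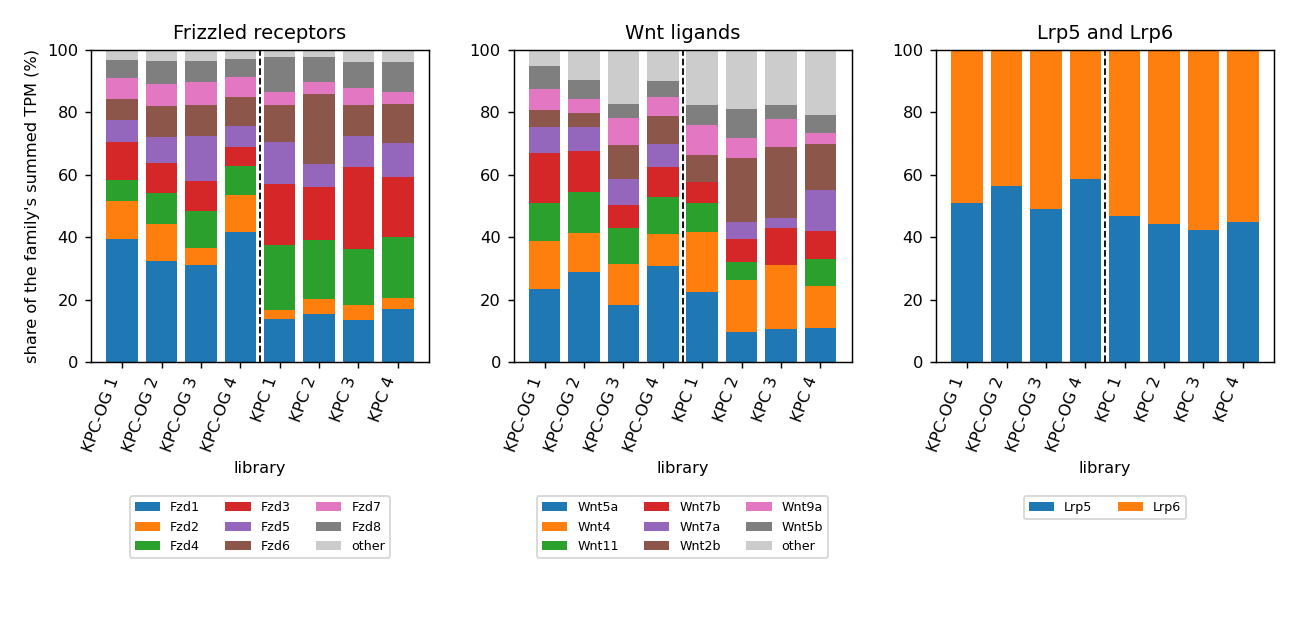
Stacked bars give the percent of the family's summed TPM held by each gene in each library, for the Frizzled receptors, the Wnt ligands and the co-receptors, with KPC-OG left of the dashed line and KPC right of it. Fzd1 takes 31.0% to 41.6% of Frizzled TPM in KPC-OG and 13.5% to 17.0% in KPC.

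Among the ligands, Wnt5a held the largest share of Wnt TPM in all 4 KPC-OG libraries (18.3% to 30.6%), against 9.66% to 22.5% in KPC, where KPC 1 overlapped the KPC-OG range. Wnt11 held 11.6% to 13.1% in KPC-OG and 0% to 9.44% in KPC. Wnt6 went the other way, with 1.82% to 7.0% in KPC-OG and 7.54% to 11.1% in KPC. Neither Wnt11 nor Wnt6 overlapped between the groups. Their KPC shares rest on few reads, 3, 3, 0 and 3 for Wnt11 and 4, 4, 5 and 7 for Wnt6, which was below the filter. Wnt4 was among the first 4 ligands by share in every KPC-OG library and held rank 2 in every KPC library. Its shares overlapped (10.5% to 15.5% in KPC-OG, 13.4% to 20.7% in KPC).

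Lrp5 and Lrp6, the co-receptors of the beta-catenin route, were present at 10.4 to 32.1 and 10.8 to 22.8 TPM in KPC-OG and at 4.34 to 5.09 and 5.71 to 6.41 TPM in KPC. Lrp5 had 46.9, 52.4, 38.3 and 54.6 CPM in KPC-OG and 39.9, 32.5, 31.8 and 34.6 CPM in KPC, where KPC 1 exceeded KPC-OG 3. Its log2 fold change was 0.47 ± 0.14 (edgeR adjusted p = 0.0281). It no longer passed when KPC-OG 1, KPC-OG 2, KPC-OG 4, KPC 2, KPC 3 or KPC 4 was left out (adjusted p up to 0.0830). Lrp6 had 63.8, 58.5, 50.5 and 58.9 CPM in KPC-OG and 70.3, 59.7, 64.2 and 68.2 CPM in KPC and did not pass (log2 fold change -0.18 ± 0.12, edgeR adjusted p = 0.281). Per transcript length, Lrp5 made up 48.9% to 58.5% of the pair's TPM in KPC-OG and 42.3% to 46.7% in KPC, without overlap.

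Rspo1, an R-spondin of mesothelial and stromal cells, rose in KPC-OG, and of the other R-spondins 1 was tested. Rspo1 (ENSMUSG00000028871, chromosome 4, 124986430 to 125009099, plus strand) had 4.90, 3.45, 4.65 and 7.17 CPM in KPC-OG and 1.53, 2.25, 2.39 and 1.01 CPM in KPC. The groups did not overlap (log2 fold change 1.52 ± 0.34, edgeR adjusted p = 0.00713). Mesothelial markers passed the test as higher for 2 of 7 genes tested (17.4% of all genes). Their summed level was 26.4 to 59.2 CPM in KPC-OG and 14.5 to 44.0 CPM in KPC. Rspo3, the R-spondin of endothelium and stroma, had 1.58, 0.881, 0.393 and 1.01 CPM in KPC-OG and 1.72, 1.31, 2.65 and 0.675 CPM in KPC, and did not pass (log2 fold change -0.63, 95% interval -1.79 to 0.52, edgeR adjusted p = 0.376). Within the R-spondin TPM, Rspo3 held 4.94% to 18.3% in KPC-OG and 18.4% to 47.1% in KPC. Rspo2 and Rspo4 had 5 reads each over the KPC-OG libraries and none in KPC.

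Lgr4, the R-spondin receptor found in many epithelia, had 45.2, 36.8, 30.8 and 35.6 CPM in KPC-OG and 65.1, 50.5, 44.3 and 55.2 CPM in KPC. KPC-OG 1 lay above KPC 3, so the groups overlapped. Lgr4 fell by 0.54 ± 0.16 on the TMM-scaled log2 scale (edgeR adjusted p = 0.0247), whereas with library sizes alone its value was 1.23. The call was lost without KPC-OG 2, KPC-OG 4, KPC 1 or KPC 4 (adjusted p up to 0.0685). Lgr6 had 0.913 to 1.10 CPM in KPC-OG and 0 to 0.939 CPM in KPC (log2 fold change 1.32 ± 0.76, edgeR adjusted p = 0.206).

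Lgr5, the receptor that marks stem cells of the gut and of several glands, lay below the filter. It had 58, 33, 10 and 96 reads in KPC-OG and 1, 2, 0 and 1 in KPC, so every KPC-OG library held more than any KPC library. On the CPM scale these were 1.77, 0.855, 0.655 and 2.86 CPM in KPC-OG, and 0.191, 0.376, 0 and 0.169 CPM in KPC. KPC 3, with no read, allows up to 0.796 CPM (3 reads, counting error only), which is above KPC-OG 3. In a fit of 21893 genes with no filter, where 11.4% were higher, its log2 fold change was 2.98 ± 0.77 (edgeR adjusted p = 0.0160). The longest protein-coding transcript, of 4714 bases, held 49.4% of Lgr5 TPM in KPC-OG and was at 0 in every KPC library, where the few reads fell on transcripts annotated as retained introns. Of 8 intestinal markers, 3 were tested (Vil1, Fabp1 and Lgals4), and all 3 were higher in KPC-OG, against 17.4% of all genes tested. The summed levels, mostly Lgals4 and Vil1, were 64.0 to 125 CPM in KPC-OG and 8.26 to 21.1 CPM in KPC. Fabp1 had 0.548, 8.71, 8.64 and 0.595 CPM in KPC-OG libraries 1 to 4 and at most 0.382 CPM in KPC. It was thus tested only through its level in KPC-OG. Fabp1 was high only in KPC-OG 2 and KPC-OG 3, where summed liver markers were also highest (290 and 383 CPM) and Lgr5 was lowest of its group. The intestinal transcription factors Cdx1 and Cdx2 were below the filter, with at most 0.213 CPM in any library. The part of these markers in the Lgr5 result was not tested.

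Of the 10 secreted inhibitors, 6 were tested, and 5 of these rose in KPC-OG (17.4% of all genes tested) while none fell (16.6%). Of the 5, 2 reached the filter in fewer than 4 KPC libraries, Sfrp2 and Wif1. Sfrp1 (ENSMUSG00000031548, chromosome 8, 23411502 to 23449632, plus strand), a decoy that resembles the ligand-binding part of Frizzled, had 80.8, 49.8, 36.9 and 88.5 CPM in KPC-OG against 9.17, 6.95, 10.1 and 20.1 CPM in KPC. All KPC-OG libraries lay above the KPC range, and the log2 fold change was 2.46 ± 0.38 (edgeR adjusted p = 0.00193). Sfrp2, its stromal relative, had 8.58, 7.98, 7.01 and 12.4 CPM in KPC-OG and 0.382, 3.76, 1.59 and 2.03 CPM in KPC, again without overlap (log2 fold change 2.20 ± 0.43, edgeR adjusted p = 0.00437). Sfrp4 had 4.47, 2.33, 1.64 and 10.2 CPM in KPC-OG and 1.53, 3.76, 2.12 and 0.675 CPM in KPC. Its groups overlapped and it did not pass (log2 fold change 1.23 ± 0.67, edgeR adjusted p = 0.184), but without KPC-OG 2 and KPC-OG 3 together it did (adjusted p = 0.0300).

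Dkk3, a divergent Dickkopf protein with little known action on Lrp co-receptors, had 30.5, 24.2, 9.69 and 32.1 CPM in KPC-OG and 3.44, 6.39, 3.45 and 6.75 CPM in KPC. The groups were apart, with KPC-OG 3 closest to KPC (log2 fold change 2.25 ± 0.40, edgeR adjusted p = 0.00331). Dkk2, which binds Lrp5 and Lrp6, had 13.9, 8.76, 5.11 and 14.9 CPM in KPC-OG and 3.06, 3.57, 2.12 and 3.04 CPM in KPC. It was likewise higher in every KPC-OG library (log2 fold change 1.84 ± 0.35, edgeR adjusted p = 0.00364). Wif1, which binds Wnt proteins directly, had 111, 96, 16 and 208 reads in KPC-OG and 4, 1, 0 and 1 in KPC. As CPM these were 3.38, 2.49, 1.05 and 6.19 in KPC-OG and 0.764, 0.188, 0 and 0.169 in KPC, without overlap. Its log2 fold change of 3.46 ± 0.78 (edgeR adjusted p = 0.0078) had the widest interval of the genes that passed, 1.73 to 5.19. Without KPC 1 it was 4.57, and with re-centred TPM + 1 it was 0.69 and not called (adjusted p = 0.205). A protein-coding transcript of 2294 bases held 80.2% of Wif1 TPM in KPC-OG and 46.1% in KPC, and with protein-coding transcripts alone Wif1 was too low to test.

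The remaining inhibitors were below the filter. Sfrp5 had 101 reads in KPC-OG and 19 in KPC, which on the scaled level was 0.426 to 1.37 CPM in KPC-OG and 0.764 to 1.13 CPM in KPC. Notum, an enzyme that removes the lipid from Wnt proteins, had 73 reads in KPC-OG and 6 in KPC, and its exons overlap antisense genes. Dkk1 and Dkk4 held at most 4 reads in any library. By share of inhibitor TPM, Sfrp1 ranked first in every KPC-OG library with 40.0% to 45.3%, against 15.0% to 44.4% in KPC, so the ranges overlapped.

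**Figure D4:**
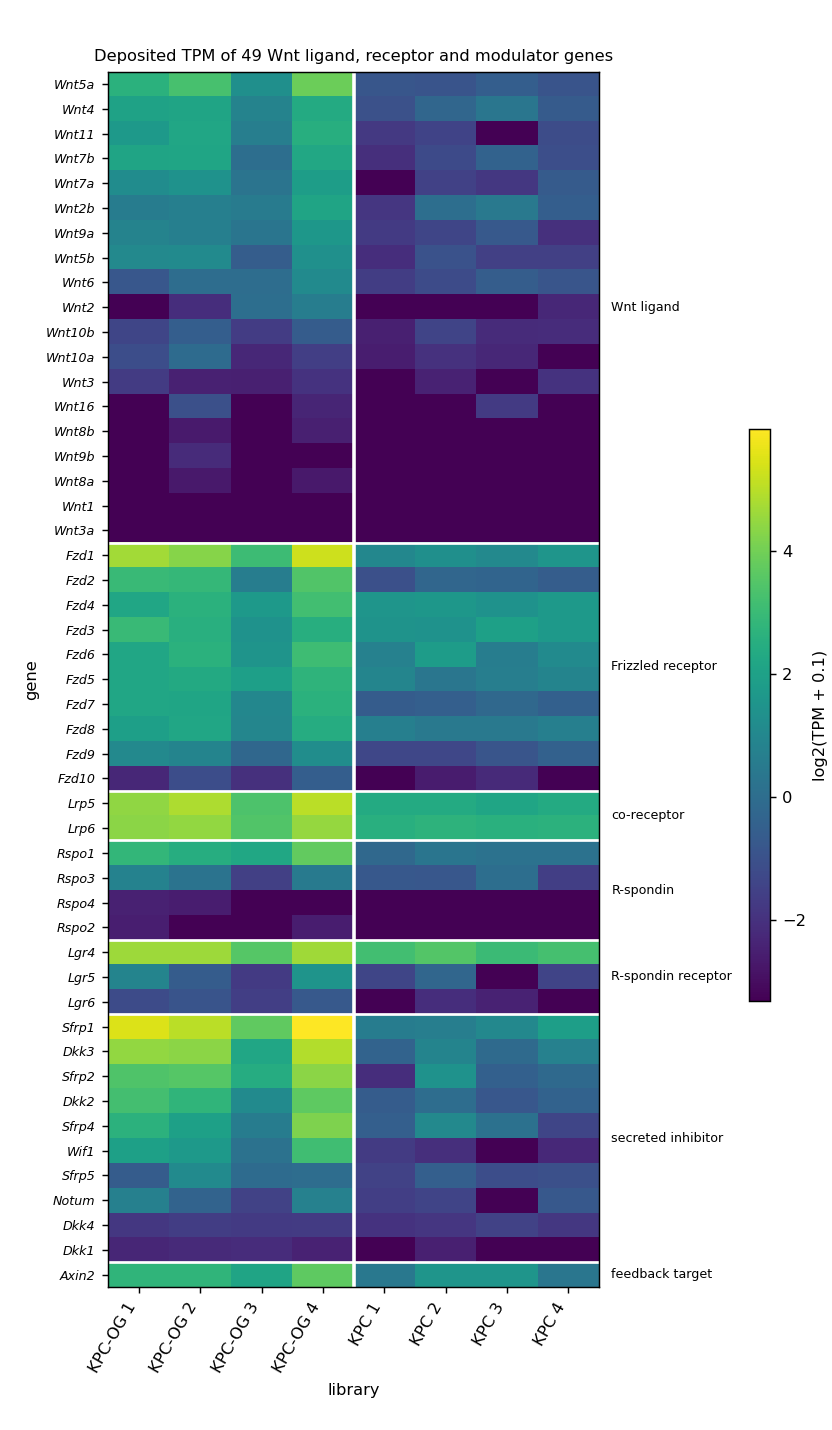
Deposited TPM of the 49 genes as log2(TPM + 0.1), with genes in rows by family, the 4 KPC-OG libraries left of the white line and the 4 KPC libraries right of it. Sfrp1 and Fzd1 are brightest in KPC-OG 4, with 63.1 and 38.7 TPM, and Wnt1 and Wnt3a are at 0 throughout.

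Axin2 (ENSMUSG00000000142, chromosome 11, 108920349 to 108950783, plus strand), which beta-catenin signalling induces in most tissues and which feeds back on the destruction complex, had 6.15, 5.21, 5.30 and 8.69 CPM in KPC-OG and 6.68, 6.95, 7.96 and 4.73 CPM in KPC. The groups overlapped, KPC-OG 4 being the highest library of all and KPC 4 the lowest. Its log2 fold change was -0.04 ± 0.23 on the TMM scale (edgeR adjusted p = 0.914), with a 95% interval of -0.56 to 0.48, and 1.73 with library sizes alone. A p that misses the threshold does not show that Axin2 was equal in both genotypes.

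The other genes of the pathway, taken from lists of its parts, moved in both directions, and their counts stand beside the 17.4% higher and 16.6% lower of all genes tested. Among 17 target genes, 15 were tested, 5 rose, 2 fell and 8 did not pass, with a median log2 fold change of 0.18. Ephb2 and Ephb3, ephrin receptors of gut crypts, rose by 2.33 ± 0.31 and 1.55 ± 0.35 on the log2 scale (edgeR adjusted p = 9.74e-04 and 0.00825). Cd44, a hyaluronan receptor, had 49.4 to 94.1 CPM in KPC-OG and 14.3 to 26.7 CPM in KPC (log2 fold change 1.72 ± 0.24, edgeR adjusted p = 0.00103). Myc, a growth-promoting transcription factor, went the other way, with 6.54, 7.18, 7.99 and 6.73 CPM in KPC-OG and 13.6, 19.0, 17.5 and 17.2 CPM in KPC (log2 fold change -1.24 ± 0.15, edgeR adjusted p = 6.24e-04). Several of these genes also have inputs other than beta-catenin.

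Of the 14 tested genes of ligand secretion and receptor turnover, 4 rose (17.4% of all genes), 2 fell (16.6%) and 8 did not pass (median 0.33). Sostdc1, a secreted antagonist of Wnt and BMP signals, had 4.99, 4.38, 14.0 and 3.51 CPM in KPC-OG and 36.7, 34.4, 36.4 and 41.5 CPM in KPC. It fell by 2.52 ± 0.41 on the log2 scale (edgeR adjusted p = 0.00246), the opposite direction to the Sfrp and Dkk genes that passed, and KPC-OG 3 was the nearest to KPC. Without KPC-OG 3 the log2 fold change of Sostdc1 was -3.10. Porcn, the enzyme that attaches the lipid to Wnt proteins, had a log2 fold change of 0.79 ± 0.18 (edgeR adjusted p = 0.00836, and 1.76 with protein-coding transcripts alone). That of Tpbg, a membrane inhibitor of Lrp6, was 1.77 ± 0.45 (edgeR adjusted p = 0.0129). Tpbg reached the filter in 3 KPC libraries, so it was tested only through its level in KPC-OG. Znrf3, the ligase that removes Frizzled receptors and itself a target gene, fell by 0.58 ± 0.15 (edgeR adjusted p = 0.0136).

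Of 14 tested co-receptors and planar polarity genes, 1 rose, 2 fell and 11 did not pass (median 0.24). Celsr1 and Celsr2, atypical cadherins of planar polarity, fell by 1.23 ± 0.17 and 1.55 ± 0.22 on the log2 scale (edgeR adjusted p = 0.00102 and 0.00116), and neither had overlapping groups: Celsr1 ranged from 58.2 to 79.4 CPM in KPC-OG and from 128.8 to 194 CPM in KPC. Cthrc1, a secreted protein of activated fibroblasts that favours non-canonical Wnt binding, had 1.37 to 3.04 CPM in KPC-OG and 0.169 to 0.796 CPM in KPC (log2 fold change 2.50 ± 0.54, edgeR adjusted p = 0.00588). It reached the filter in 0 KPC libraries, so it was tested only through its level in KPC-OG. All 30 genes of the beta-catenin destruction complex and its transcription partners were tested, of which 3 rose (17.4% of all genes), 6 fell (16.6%) and 21 did not pass (median -0.15). The scaffold Apc fell by 0.79 ± 0.13 and the adaptor Dvl3 fell by 1.23 ± 0.22 (edgeR adjusted p = 0.00188 and 0.00251), Amer1, a scaffold that recruits Axin, fell by 0.74 ± 0.17 (0.00814), and the kinase Csnk1e had a log2 fold change of 0.75 ± 0.14 (0.00356). Directions depended on the scaling here, and with library sizes alone, Myc, Znrf3, Celsr1, Celsr2, Apc, Dvl3 and Amer1 had positive log2 fold changes, from 0.14 for Celsr2 to 1.17 for Znrf3, while Sostdc1 was at -0.95.

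Among the 16 genes that rose, KPC-OG 3 was the lowest library of its group for 14 and KPC-OG 4 the highest for 13. Among all 2486 genes called higher, KPC-OG 3 was the lowest for 64.6% and KPC-OG 4 the highest for 45.4%. KPC-OG 3 had the lowest summed fibroblast and stellate marker level of its group (1845 CPM, against 3107 to 5034 CPM in the other KPC-OG libraries), the lowest duct marker level (1057 CPM) and the highest acinar marker level (164188 CPM). Macrophage markers did not follow that order, with 845, 803, 1124 and 1130.2 CPM in KPC-OG libraries 1 to 4. Pericyte and smooth muscle markers were 347, 150, 110 and 344 CPM in KPC-OG and 99.7 to 156 CPM in KPC. Endothelial markers, at 93.8 to 133 CPM in KPC-OG and 104 to 133 CPM in KPC, did not run with the genotypes. Liver markers summed to 21.1, 290.0, 383 and 23.7 CPM in KPC-OG libraries 1 to 4 and to 19.3 to 29.8 CPM in KPC, so KPC-OG 2 and KPC-OG 3 stood apart. None of the marker lists had a gene at 0 in all libraries, and their part in the Wnt results was not tested.

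Without KPC-OG 2 and KPC-OG 3, 14 of the 30 Wnt genes were higher and none lower, against 2166 and 1813 of all genes, and the log2 fold changes of the 3 lower genes were -0.62 for Fzd3, -0.62 for Fzd4 and -0.39 for Lgr4. Fzd1, Wnt5a, Sfrp1 and Dkk3 kept their calls under all 22 alternatives. These include library sizes alone, TPM + 1 and TPM + 0.1 without re-centring, where 12817 to 13078 of 14267 genes were called higher. A kept call in those fits therefore says little. Re-centred TPM + 1 gave lower values for Wnt5a (1.11) and Dkk3 (1.66). It gave 0.08 for Wnt7a and 0.27 for Fzd7, neither called (limma adjusted p = 0.855 and 0.547). With limma-voom, 8 genes were higher, against 1752 of all genes. Fzd2, Dkk2, Wif1, Rspo1, Wnt4, Wnt5b, Wnt7a and Wnt7b were no longer called (limma-voom adjusted p from 0.0506 for Wnt4 to 0.150 for Fzd2).

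**Figure D5:**
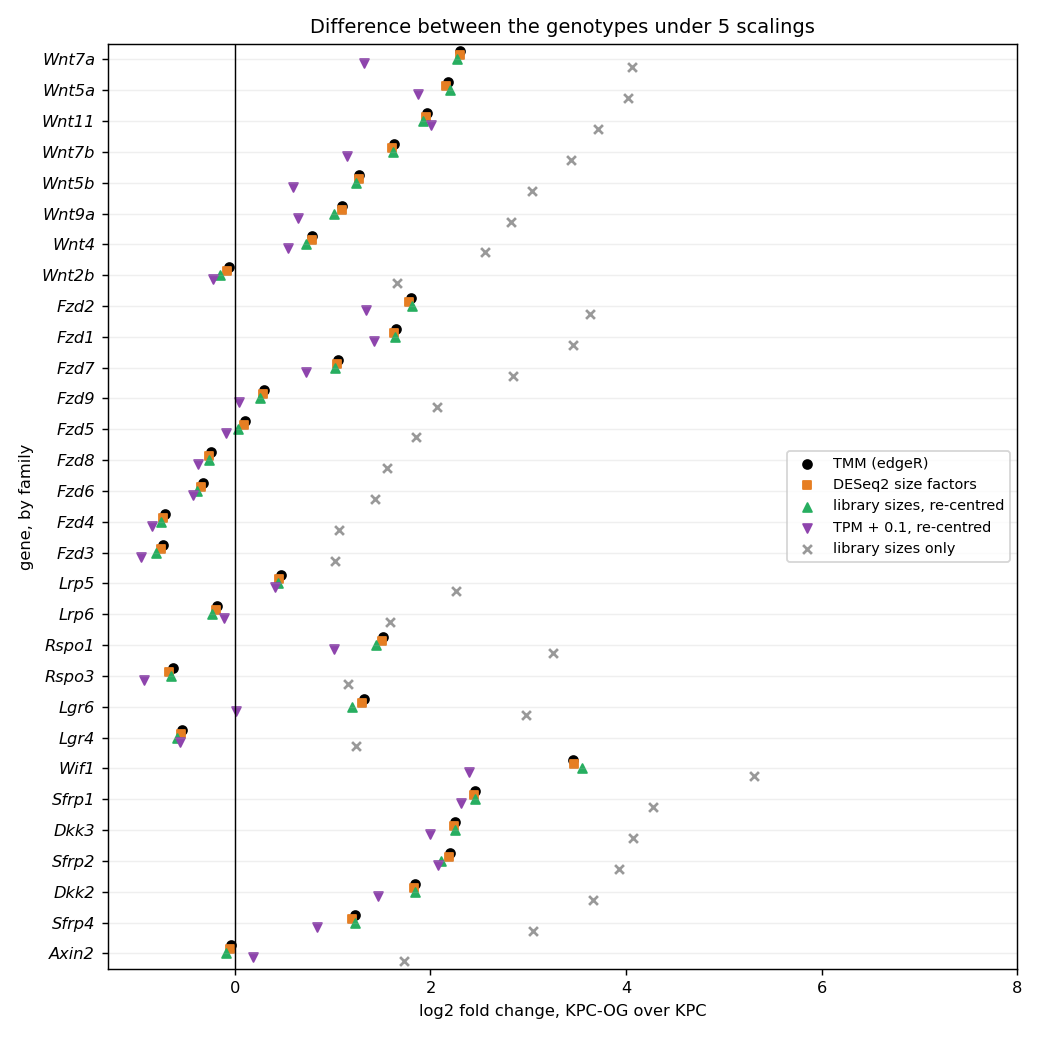
Log2 fold change of KPC-OG over KPC for the 30 genes tested under 5 scalings, with symbols offset vertically for legibility. The values with TMM, DESeq2 size factors and re-centred library sizes lie close together. Re-centred TPM + 0.1 gives smaller values for all genes that rose except Wnt11, such as 1.32 for Wnt7a against 2.30 with TMM. Library sizes alone place all 30 right of 0, including Fzd3 at 1.02 and Lgr4 at 1.23.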

How the data were processed

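The authors sequenced total RNA of 4 KPC-OG and 4 KPC pancreas libraries after ribosomal depletion, per the labels' protocols. Per the file headers, they quantified transcripts with Sailfish 0.6.3 (k-mers of 20, 1000 iterations, bias correction) against an Ensembl release 76 index. The deposited estimated counts are bias-corrected reads per transcript, and the deposited TPM values are scaled within each library. Per the submitters' processing notes, STAR 2.0.4b, bcl2fastq, limma and edgeR were used too, with no stated role. Strand is not stated.

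Of 86127 transcripts, 83827 matched a GENCODE M21 gene (GRCm38). The other 2300 (1.45% to 3.04% of reads in KPC-OG, 3.93% to 4.23% in KPC) were left out. Estimated counts were summed per gene and rounded. The test was edgeR 4.0.16 quasi-likelihood (robust, R 4.3.3) with TMM, filterByExpr by group, no covariate and Benjamini-Hochberg adjustment over 14267 genes. Each standard error is the estimate over the square root of its F value. Alternatives used DESeq2 1.42.0, limma 3.58.1 (voom, and log2 TPM with a pseudocount of 1 or 0.1), other filters and scalings, thinning, and omission of libraries, and the scripts were tested on simulated data. Libraries of a group differed beyond counting noise (lowest chi-square 16.1 times its degrees of freedom), so none was taken as a duplicate. The genes and lists were chosen with earlier results of these data known. All 49 genes are accounted for. Of the other pathway genes, up to 4 per list with the smallest adjusted p are named, and all of a list with 5 or fewer calls.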

Additional observations from a re-analysis of the deposited data

Results flagged for a closer look

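In 60 groups of 4 libraries (30 genes in each genotype), the gap of the highest or lowest library to its neighbour was compared with the group's range, a comparison that chance alone passes in about 1 of 20 groups. A library stood apart in 2 groups. Wnt11 had a TMM-scaled level of 0 CPM in KPC 3, against 0.507 to 0.573 CPM in the other KPC libraries. Wnt7a had 0 CPM in KPC 1, against 0.675 to 0.796 CPM in the other KPC libraries. In both genes the other KPC values rest on 3 to 4 reads, and a library with no read allows up to 0.796 CPM in KPC 3 and 0.573 CPM in KPC 1 (3 reads, counting error only).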

How the results depend on the processing

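Counts of Wnt genes here cover the 30 tested in the main fit, which had 16 higher and 3 lower, and 2486 and 2373 genes of all those tested. With library sizes alone, 29 Wnt genes were higher and 0 lower (13078 and 99 of all genes). TPM + 1 gave 28 and 0 (12856 and 121), and TPM + 0.1 gave 28 and 0 (12817 and 120). The median of all genes was shifted by 1.74, 1.23 and 1.60 in these fits, by construction. Values reversed by them were, in the order library sizes, TPM + 1 and TPM + 0.1, 1.02, 0.61 and 0.73 for Fzd3, 1.07, 0.70 and 0.84 for Fzd4, 1.43, 0.98 and 1.26 for Fzd6, and 1.55, 0.96 and 1.31 for Fzd8. They were 1.15, 0.39 and 0.76 for Rspo3, 1.23, 1.06 and 1.12 for Lgr4, 1.66, 0.80 and 1.47 for Wnt2b, 1.59, 1.45 and 1.58 for Lrp6, and 1.73, 1.49 and 1.88 for Axin2. For other pathway genes they were 1.17, 0.57 and 0.75 for Znrf3, 0.51, 0.34 and 0.36 for Celsr1, 0.14, 0.15 and 0.17 for Celsr2, 0.95, 1.23 and 1.29 for Apc, 0.45, 0.25 and 0.28 for Dvl3, 0.96, 0.57 and 0.82 for Amer1, and 0.46, 0.45 and 0.50 for Myc. Re-centring on the median gene was chosen for TPM after seeing the data. Library sizes re-centred gave 11 higher and 0 lower (917 and 1400 of all genes). TPM + 1 re-centred gave 5 higher and 2 lower (987 and 1594 of all genes). The 2 were Rspo3 (-0.92) and Lgr6, neither called in the main fit, while Fzd3, Fzd4 and Lgr4 were not called (adjusted p = 0.111, 0.151 and 0.589). This fit had -0.11 for Fzd5, -0.42 for Fzd9, -0.93 for Lgr6, -0.23 for Wnt5b, -0.20 for Wnt9a, 0.14 for Lrp6, 0.17 for Axin2 and -0.012 for Nkd1. TPM + 0.1 re-centred gave 6 and 0 (616 and 1008), with -0.089 for Fzd5 and 0.19 for Axin2. limma-voom gave 8 higher and 3 lower (1752 and 2370 of all genes), with 0.04 for Wnt2b. Thinning to equal effective depth gave 9 and 2 (1896 and 1849 of the 12098 genes tested), with -0.099 for Fzd5 and 0.019 for Wnt2b. There Wnt4, Wnt11, Lrp5 and Fzd3 were no longer called, and Wnt5b, Wnt7a, Wnt7b and Wif1 were too low to test. Without KPC-OG 2 and KPC-OG 3, 14 were higher and 0 lower (2166 and 1813 of all genes), with 0.17 for Wnt2b and 0.20 for Axin2. The causes were not tested. DESeq2 gave 16 and 3 (2714 and 2725 of all genes), with Wnt9a in place of Wnt5b. No filter gave 14 and 3, or 15 higher with Lgr5 (2506 and 2022 of 21893 genes). A stricter filter gave 15 and 3 (2426 and 2347 of 13687 genes). Protein-coding transcripts gave 12 and 3 (2175 and 2062 of 13325 genes), with -0.16 for Ctnnb1.

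Leaving out each library gave 13 to 16 Wnt genes higher and 2 to 3 lower, and 1689 to 2880 and 1705 to 2548 of all genes, the fewest higher without KPC-OG 4 and the fewest lower without KPC-OG 2. Of the 19 calls, 15 were kept throughout. Among genes that did not pass, Axin2 ranged from -0.23 to 0.049, Fzd5 from -0.022 to 0.22 and Wnt2b from -0.41 to 0.30, all crossing 0. Libraries of the same replicate number were not treated as pairs in the main fit. Their deviations correlated at 0.274, 0.275, 0.0385 and 0.0361, all positive, but not every pair exceeded the 0.1 asked for. KPC-OG 1, KPC-OG 2 and KPC-OG 4 matched best the KPC library of their own number, and KPC-OG 3 matched KPC 2. A replicate block gave 14 higher and 3 lower (2477 and 2418 of all genes), without Wnt4 and Wnt5b. Depth limits the low genes: 3 reads equal 0.148 CPM over the KPC libraries and 0.0249 CPM over the KPC-OG libraries.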

Other observations

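Each of the 5 neighbouring pairs among the 49 genes held a member below the filter, so none could be compared. Sfrp1, higher in KPC-OG, lies 783954 bases from Dkk4 on chromosome 8, which had 13 reads in KPC-OG and 7 in KPC, and Wnt9a lies 16175 bases from Wnt3a on chromosome 11, which had none. Among the low genes, Wnt9b had 8 reads, all in KPC-OG 2, and Sfrp5 had 53 of its 101 KPC-OG reads in that library and 16 in KPC-OG 3. Nkd1, a feedback inhibitor and target gene named here after its values were seen, had 4.78, 2.36, 2.10 and 5.12 CPM in KPC-OG and 1.91, 1.69, 0 and 1.01 CPM in KPC. Its groups did not overlap, and it did not pass the test (log2 fold change 1.58 ± 0.57, edgeR adjusted p = 0.0557). It passed with DESeq2 (adjusted p = 0.0191) and without KPC-OG 3 (edgeR adjusted p = 0.0347). Nkd1 reached the filter in 2 KPC libraries, so it was tested only through its level in KPC-OG. Its paralogue Nkd2, on the same list of target genes, did pass (log2 fold change 1.92 ± 0.45, edgeR adjusted p = 0.00921). Nkd2 had 8.49, 4.85, 5.04 and 12.4 CPM in KPC-OG and 1.72, 0.939, 1.59 and 3.71 CPM in KPC. It too was tested only through its level in KPC-OG. The beta-catenin gene Ctnnb1, also named after its values were seen, had 470.0, 436, 259 and 462 CPM in KPC-OG and 269, 243, 237 and 271 CPM in KPC. Its log2 fold change was 0.67 ± 0.21 (edgeR adjusted p = 0.0302), with a value of -0.16 when protein-coding transcripts alone were counted (adjusted p = 0.907). KPC-OG 3 lay within the KPC range, and Ctnnb1 no longer passed when any single library except KPC-OG 3 was left out (adjusted p up to 0.0818).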
